A study of Mus musculus with 6 samples.

Results

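The genes described here encode the subunits of respiratory complexes I to V of the inner mitochondrial membrane, together with the complex I assembly factors whose symbols begin Ndufaf. They were chosen by symbol: those beginning Nduf, Uqcr, Atp5, Cox4, Cox5, Cox6, Cox7 or Cox8, with *Sdha* to *Sdhd* and the protein genes of mitochondrial DNA (mtDNA). Such a symbol was held by 124 of the 55367 genes deposited. Of those, 14 with "-ps" in the symbol were left out, as were 5 at 0 in all 6 libraries, *Cox7b2*, *Cox8b*, *Cox8c*, *Cox6c2* and *Ndufa4l2*. This left 105 genes, 92 nuclear and 13 in mtDNA. The test took 102 of them, and *Ndufs6b*, *Ndufb4c* and *Ndufa11b* were too low to enter it.

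The libraries came from leukemia stem cells (LSCs) of mice with MLL-AF9 acute myeloid leukemia, 3 from *Mx1-cre;Piezo1 fl/fl* donors (*Piezo1 cKO*) and 3 from *Piezo1 fl/fl* littermates (WT), on C57BL/6J and 8 to 10 weeks old. Donors of both genotypes received pIpC before their marrow was transduced and transplanted. *Mx1-cre* is driven by interferon and acts in many cells of blood and in other organs, so deletion was not confined to one kind of blood cell. mRNA was copied from oligo-dT primers, amplified as full-length cDNA and cut with Tn5, and the paired reads carry no strand.

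Complexes I to IV pass electrons from NADH and succinate to oxygen and pump protons, except complex II, which pumps none. Complex V uses the returning protons to make ATP. Most subunits are made from nuclear genes and imported, while a small core of hydrophobic subunits of complexes I, III, IV and V is encoded and translated inside mitochondria, so assembly needs products of both genomes.

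*Piezo1*, the targeted gene, stood at 6.301, 6.263 and 6.336 in WT and 5.951, 6.074 and 6.01 in *Piezo1 cKO* LSCs on the deposited log2 scale. Tests below are limma with Benjamini-Hochberg adjustment over all genes tested, written limma-BH, and a gene was called at an adjusted p under 0.05. For *Piezo1* log2FC was −0.288 (SE = 0.04, limma-BH adjusted p = 5.8e-06). As reads recovered from the deposited values and divided by size factors, called normalized reads here, it was at 101, 93 and 109 in WT and 37, 57 and 46 in *Piezo1 cKO* LSCs, or 45.9% of WT. All 3 *Piezo1 cKO* libraries lay below all 3 WT libraries, and transcript remained in each. log2FC is the difference of mean deposited values, which are pulled towards the gene mean, so it is smaller than the log2 ratio of reads, most in genes with few reads but in abundant genes too (0.268 against 0.369 for *Sdhb*).

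Of the 89 nuclear genes tested 50 rose and 7 fell (56.2% and 7.87%), where 31.6% of all 16746 genes tested rose and 31.4% fell. Counts for complexes, modules and lists below are to be read against these shares of all genes. The median log2FC was 0.0921 for the nuclear genes and 0.000612 for all genes. On recovered reads the nuclear median was 0.147. In 50 nuclear genes all 3 *Piezo1 cKO* libraries lay above all 3 WT libraries and in 10 all lay below, against 33.5% and 33.1% of all genes tested. With libraries shifted to the same median the nuclear genes gave 57 higher and 5 lower, and all genes 6450 higher and 4214 lower. The p-values measure spread between these libraries, which may be technical, and bulk RNA cannot part fewer cells from less RNA per cell.

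Of the 13 mtDNA genes 1 was called higher and 1 lower (7.69% each). *mt-Co2*, *mt-Co3*, *mt-Atp6*, *mt-Atp8*, *mt-Nd3* and *mt-Nd4l* had at most 59 normalized reads in any library. The log2FC of such genes is pulled most towards 0, which limits the comparison with the nuclear genes. The median log2FC of the 13 was 0.0192, the value of *mt-Nd3* itself, and 0.0417 with libraries shifted to the same median. The median was 0.063 on recovered reads, and 0.0811 on recovered reads scaled to library totals. It turned to −0.014 without *Piezo1 cKO* replicate 2, to −0.0169 without WT replicate 3, and to −0.000109 without the genes that share sequence or overlap. WT and *Piezo1 cKO* values overlapped in all 13. The median moved more from library to library in this group, with an SD of 0.0646 between libraries against 0.0136 for the nuclear genes. With libraries shifted to the same median 2 mtDNA genes were higher and 1 lower.

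**Figure D1:**
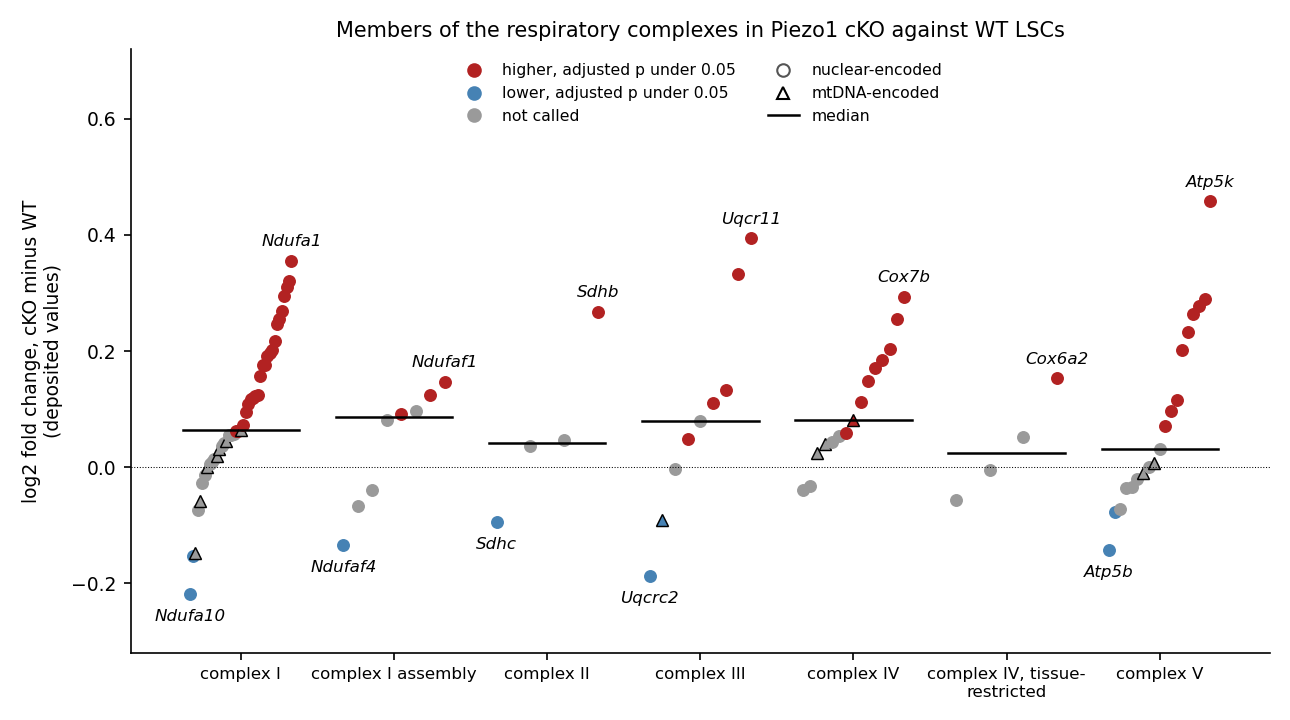
log2FC of each gene tested, *Piezo1 cKO* against WT LSCs, by complex and with the complex I assembly factors and tissue-restricted complex IV genes apart. Colour gives the limma-BH call, triangles mark mtDNA genes and the line is the median of the group.

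Complex I takes electrons from NADH. Its N module oxidizes NADH, its Q module hands the electrons to ubiquinone, and its membrane arm pumps protons and holds the mtDNA subunits. Of 36 nuclear subunits tested 23 rose and 2 fell, with a median log2FC of 0.112. With the 7 mtDNA subunits included the median of 43 was 0.0638, 0.102 without WT replicate 1 and 0.147 on recovered reads. The accessory subunits, which most bacterial enzymes lack, gave 18 higher and 1 lower of 29 (62.1% and 3.45%), with a median of 0.119. The other nuclear subunits, those of the core, gave 5 higher and 1 lower of 7 (71.4% and 14.3%), with a median of 0.0627.

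In the N module *Ndufs1*, *Ndufv3*, *Ndufv2* and *Ndufa2* rose and *Ndufv1* fell, while *Ndufa12*, *Ndufs6* and *Ndufs4* were not called (median of 8 genes 0.0597). *Ndufv1* encodes the flavoprotein at which NADH is oxidized. It was at 3100, 3120 and 3027 normalized reads in WT and 2553, 2718 and 2696 in *Piezo1 cKO* LSCs. The difference was −0.153 (SE = 0.0268, limma-BH adjusted p = 7.9e-05), a ratio of 0.862. Every *Piezo1 cKO* library was under every WT library. *Ndufs1*, for the iron-sulfur protein next in the electron path, moved the other way with a log2FC of 0.255 (SE = 0.029, limma-BH adjusted p = 5.06e-07).

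In the Q module *Ndufs3*, *Ndufa5*, *Ndufs7*, *Ndufa6*, *Ndufa7* and *Ndufs8* rose, and the median log2FC of the module was 0.132. *Ndufa6* encodes an LYR-motif subunit that holds the mitochondrial acyl carrier protein. Its normalized reads were 1016, 901 and 908 in WT and 1249, 1370 and 1285 in *Piezo1 cKO* LSCs. log2FC was 0.311 (SE = 0.0364, limma-BH adjusted p = 7.21e-07) and the ratio 1.38. The lowest *Piezo1 cKO* library, replicate 1, was above the highest WT library.

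Of the 20 nuclear genes of the membrane arm 13 rose, *Ndufb3*, *Ndufa8*, *Ndufa1*, *Ndufb5*, *Ndufc1*, *Ndufb6*, *Ndufa3*, *Ndufc2*, *Ndufa13*, *Ndufb4*, *Ndufb10*, *Ndufa11* and *Ndufb8*. *Ndufa10* fell, *Ndufb11*, *Ndufs5*, *Ndufb2*, *Ndufab1*, *Ndufb7* and *Ndufb9* were not called, and the median was 0.118. *Ndufa13* and *Ndufb6* are uncertain, since 24.0% of the windows of each occur in another gene. *Ndufa1*, on the X chromosome, encodes a small subunit at the joint of the arms. It was at 1301, 1338 and 1260 normalized reads in WT and 1763, 1910 and 1913 in *Piezo1 cKO* LSCs. This gave a log2FC of 0.355 (SE = 0.0316, limma-BH adjusted p = 1.9e-08) and a ratio of 1.43, the largest log2FC of complex I. The groups lay apart, with *Piezo1 cKO* replicate 1 nearest to WT.

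*Ndufa3* encodes a single-span subunit near the same joint. Normalized reads were 2150, 2139 and 1991 in WT and 2643, 2983 and 2978 in *Piezo1 cKO* LSCs. The gene rose with a log2FC of 0.32 (SE = 0.0342, limma-BH adjusted p = 2.23e-07). All *Piezo1 cKO* libraries were above WT, replicate 1 the least. *Ndufc1* encodes a small subunit of the same arm. WT libraries held 1716, 1812 and 1726 normalized reads and *Piezo1 cKO* libraries 2244, 2290 and 2509. Here log2FC was 0.294 (SE = 0.0323, limma-BH adjusted p = 3.13e-07). No library of one group reached the other.

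*Ndufa10* encodes a subunit of the nucleoside kinase family on the matrix face of the arm. It was at 2086, 2032 and 2127 normalized reads in WT and 1667, 1704 and 1653 in *Piezo1 cKO* LSCs. log2FC was −0.218 (SE = 0.0279, limma-BH adjusted p = 2.22e-06) and the ratio 0.804, the lowest log2FC of all 102 genes tested. The 3 *Piezo1 cKO* values were close to each other and below WT.

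The Ndufaf proteins help build complex I and are not in the finished enzyme. Of 8 assembly factors 3 rose and 1 fell (37.5% and 12.5%), with a median log2FC of 0.0864. Among all genes tested 31.6% rose and 31.4% fell. Of 77 nuclear subunits of all complexes 46 rose and 6 fell (59.7% and 7.79%), with a median of 0.0967. *Ndufaf1*, part of the complex that builds the membrane arm, was at 734, 721 and 745 normalized reads in WT and 915, 811 and 856 in *Piezo1 cKO* LSCs. Its log2FC was 0.147 (SE = 0.0349, limma-BH adjusted p = 0.00133). The groups were apart. *Ndufaf6*, of the phytoene synthase family, was at 417, 392 and 427 in WT and 467, 453 and 519 in *Piezo1 cKO* LSCs. Its log2FC was 0.125 (SE = 0.0385, limma-BH adjusted p = 0.00884), and without *Piezo1 cKO* replicate 3 the adjusted p was 0.0646 and without WT replicate 2 0.0559. *Piezo1 cKO* replicate 3 was the highest library and WT replicate 2 the lowest.

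*Ndufaf8*, a partner of NDUFAF5, was at 894, 936 and 882 normalized reads in WT and 925, 1016 and 1053 in *Piezo1 cKO* LSCs. It was called at a log2FC of 0.0921 (SE = 0.0357, limma-BH adjusted p = 0.0316), although *Piezo1 cKO* replicate 1 lay within WT. The call was lost without any of 4 libraries, most without *Piezo1 cKO* replicate 3 (log2FC = 0.0659, adjusted p = 0.163), and with no filter (adjusted p = 0.0605). *Ndufaf4*, which works with NDUFAF3 on the Q module, was at 713, 704 and 663 in WT and 591, 594 and 600 in *Piezo1 cKO* LSCs. It fell with a log2FC of −0.135 (SE = 0.0335, limma-BH adjusted p = 0.0018). All WT libraries were above all *Piezo1 cKO* libraries.

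The other 4 assembly factors were not called. *Ndufaf3* was at 949, 936 and 942 normalized reads in WT and 927, 1081 and 1078 in *Piezo1 cKO* LSCs (log2FC = 0.0808, limma-BH adjusted p = 0.07). *Ndufaf5*, for an arginine hydroxylase of NDUFS7, was at 69, 81 and 82 in WT and 118, 99 and 75 in *Piezo1 cKO* LSCs (log2FC = 0.0963, limma-BH adjusted p = 0.0752). In both genes 1 *Piezo1 cKO* library lay within or under WT, and leaving that library out made each called higher: *Ndufaf3* without *Piezo1 cKO* replicate 1 (adjusted p = 0.00278) and *Ndufaf5* without *Piezo1 cKO* replicate 3 (adjusted p = 0.0104). With libraries shifted to the same median both were called higher too (adjusted p = 0.0188 and 0.0274). *Ndufaf7*, for a mitochondrial arginine methyltransferase, was at 1116, 1215 and 1179 in WT and 1121, 1086 and 1163 in *Piezo1 cKO* LSCs (log2FC = −0.0388, limma-BH adjusted p = 0.312). *Ndufaf2* was at 139, 125 and 138 in WT and 113, 130 and 110 in *Piezo1 cKO* LSCs (log2FC = −0.0678, limma-BH adjusted p = 0.138). Its values are uncertain, since 62.4% of its 100-base windows occur in another annotated gene and it overlaps *B230220B15Rik*.

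Complex II oxidizes succinate and is wholly nuclear. Of its 4 genes *Sdhb* rose and *Sdhc* fell, with a median log2FC of 0.0411. *Sdhb*, for the iron-sulfur subunit, was at 4580, 4651 and 4544 normalized reads in WT and 5732, 6152 and 5906 in *Piezo1 cKO* LSCs. The log2FC of 0.268 (SE = 0.0242, limma-BH adjusted p = 2.36e-08) stood for a ratio of 1.29. The groups were far apart beside the spread within each. *Sdha*, for the flavoprotein partner, was at 6267, 6227 and 6276 in WT and 6701, 6467 and 6450 in *Piezo1 cKO* LSCs. Although these did not overlap, it was not called (log2FC = 0.0465, SE = 0.0216, limma-BH adjusted p = 0.0684). On recovered reads (adjusted p = 0.0484) and with libraries shifted to the same median (adjusted p = 0.0119) it was called higher.

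Of the membrane anchors, *Sdhc* was at 506, 491 and 507 normalized reads in WT and 449, 421 and 473 in *Piezo1 cKO* LSCs. It was called lower (log2FC = −0.0952, SE = 0.036, limma-BH adjusted p = 0.028), but with libraries shifted to the same median log2FC was −0.0727 and the adjusted p 0.0912. The call was also lost without WT replicate 1, WT replicate 3 or *Piezo1 cKO* replicate 2, the lowest library (adjusted p = 0.126). *Piezo1 cKO* replicate 3 came nearest to WT. *Sdhd* was at 2293, 2257 and 2233 in WT and 2358, 2387 and 2281 in *Piezo1 cKO* LSCs (log2FC = 0.0358, limma-BH adjusted p = 0.256), and the groups overlapped.

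Complex III moves electrons from ubiquinol to cytochrome c. Cytochrome c1, also a subunit, is encoded by *Cyc1*, which the symbols did not take in (log2FC = −0.00308, limma-BH adjusted p = 0.927). Of the 9 genes taken in *Uqcr11*, *Uqcr10*, *Uqcrh*, *Uqcrb* and *Uqcrc1* rose, *Uqcrc2* and mtDNA *mt-Cytb* fell, and *Uqcrq* and *Uqcrfs1* were not called, with a median log2FC of 0.0789, and 0.0466 without *Piezo1 cKO* replicate 3. *Uqcr11*, for the smallest accessory subunit, was at 2790, 3082 and 2966 normalized reads in WT and 3850, 4697 and 4412 in *Piezo1 cKO* LSCs. log2FC was 0.394 (SE = 0.04, limma-BH adjusted p = 1.13e-07) and the ratio 1.47. The lowest *Piezo1 cKO* library, replicate 1, was above all WT libraries. *Uqcr10*, for an accessory subunit beside cytochrome c1, was at 1232, 1090 and 1150 in WT and 1457, 1758 and 1667 in *Piezo1 cKO* LSCs. It rose with a log2FC of 0.332 (SE = 0.0419, limma-BH adjusted p = 1.83e-06). Again replicate 1 was the lowest *Piezo1 cKO* library.

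*Uqcrh*, for the acidic hinge protein that meets cytochrome c, was at 496, 473 and 432 normalized reads in WT and 524, 569 and 543 in *Piezo1 cKO* LSCs. Its log2FC was 0.133 (limma-BH adjusted p = 0.00524). *Uqcrb*, for a subunit near the quinone site, was at 509, 504 and 532 in WT and 600, 595 and 562 in *Piezo1 cKO* LSCs. Its log2FC was 0.11 (limma-BH adjusted p = 0.00947). Neither gene overlapped between groups. The core proteins split: *Uqcrc1* rose slightly with a log2FC of 0.049 (limma-BH adjusted p = 0.0269) and *Uqcrc2* fell. *Uqcrc2* was at 1854, 1975 and 1980 in WT and 1630, 1590 and 1592 in *Piezo1 cKO* LSCs. Its log2FC was −0.187 (SE = 0.0293, limma-BH adjusted p = 2.27e-05) and the ratio 0.828. No library of one group reached the other, and 15.5% of its windows are shared with *Pdzd9*.

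Complex IV reduces oxygen. Of its 12 nuclear subunits not restricted to some tissues 8 rose and 4 were not called, with a median log2FC of 0.13. With the mtDNA subunits the median of 15 was 0.0813. It was 0.195 on recovered reads and 0.13 without genes that share sequence or overlap. *Cox7b*, on the X chromosome, encodes a small single-span subunit. It was at 1469, 1410 and 1414 normalized reads in WT and 1949, 1935 and 1880 in *Piezo1 cKO* LSCs. log2FC was 0.293 (SE = 0.0286, limma-BH adjusted p = 6.82e-08) and the ratio 1.34. The libraries of each group were close together and the groups apart. *Cox6c*, another single-span subunit, was at 1459, 1387 and 1399 in WT and 1829, 1818 and 1843 in *Piezo1 cKO* LSCs. Its log2FC was 0.255 (SE = 0.0286, limma-BH adjusted p = 4.21e-07). The groups were apart here as well.

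*Ndufa4*, first named for complex I and now placed in complex IV, was at 2631, 2563 and 2351 normalized reads in WT and 3052, 3135 and 3014 in *Piezo1 cKO* LSCs. It rose with a log2FC of 0.204 (SE = 0.0302, limma-BH adjusted p = 1.25e-05). WT replicate 3 was the lowest library. *Cox7c* was at 2000, 2101 and 1979 in WT and 2436, 2420 and 2436 in *Piezo1 cKO* LSCs. Its log2FC was 0.185 (SE = 0.0275, limma-BH adjusted p = 1.32e-05), and the groups were apart. *Cox5b* rose too (log2FC = 0.112, limma-BH adjusted p = 0.0016), while *Cox5a*, *Cox7a2l* and *Cox8a* were not called.

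Several complex IV subunits come in a general form and a form found mostly in muscle, lung or testis. *Cox6a2*, the heart and muscle form, was at 16, 18 and 12 normalized reads in WT and 32, 41 and 40 in *Piezo1 cKO* LSCs. It was called higher (log2FC = 0.153, SE = 0.0303, limma-BH adjusted p = 0.000266), with a ratio of 2.5 from few reads. All *Piezo1 cKO* libraries were above WT. General *Cox6a1* was at 999, 1071 and 1027 in WT and 998, 1102 and 1182 in *Piezo1 cKO* LSCs (log2FC = 0.0536, limma-BH adjusted p = 0.23), and the groups overlapped. Without *Piezo1 cKO* replicate 1 it was called higher (adjusted p = 0.0274).

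*Cox7a2*, the general form, was at 2203, 2176 and 2123 normalized reads in WT and 2502, 2535 and 2657 in *Piezo1 cKO* LSCs. It rose with a log2FC of 0.171 (limma-BH adjusted p = 3.36e-05), and no libraries overlapped. Muscle *Cox7a1* was at 22, 16 and 16 in WT and 22, 30 and 25 in *Piezo1 cKO* LSCs (log2FC = 0.0519, limma-BH adjusted p = 0.124), and was called higher with libraries shifted to the same median (adjusted p = 0.0307). *Cox6b1* was at 2499, 2384 and 2213 in WT and 2647, 2753 and 2793 in *Piezo1 cKO* LSCs. It rose with a log2FC of 0.148 (limma-BH adjusted p = 0.000521), and the groups were apart. Testis *Cox6b2* was at 92, 115 and 108 in WT and 100, 86 and 92 in *Piezo1 cKO* LSCs (log2FC = −0.0566, limma-BH adjusted p = 0.223).

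*Cox4i1*, the general form of subunit 4, was at 4944, 5075 and 5023 normalized reads in WT and 5095, 5387 and 5428 in *Piezo1 cKO* LSCs. It was called higher by little (log2FC = 0.0584, limma-BH adjusted p = 0.0425), and of the libraries left out in turn only *Piezo1 cKO* replicate 1 left the call standing. Lung *Cox4i2* was at 11, 8 and 18 in WT and 5, 9 and 21 in *Piezo1 cKO* LSCs (log2FC = −0.005, limma-BH adjusted p = 0.891). Of these 4 tissue-restricted genes 1 was called in the test used here.

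**Figure D2:**
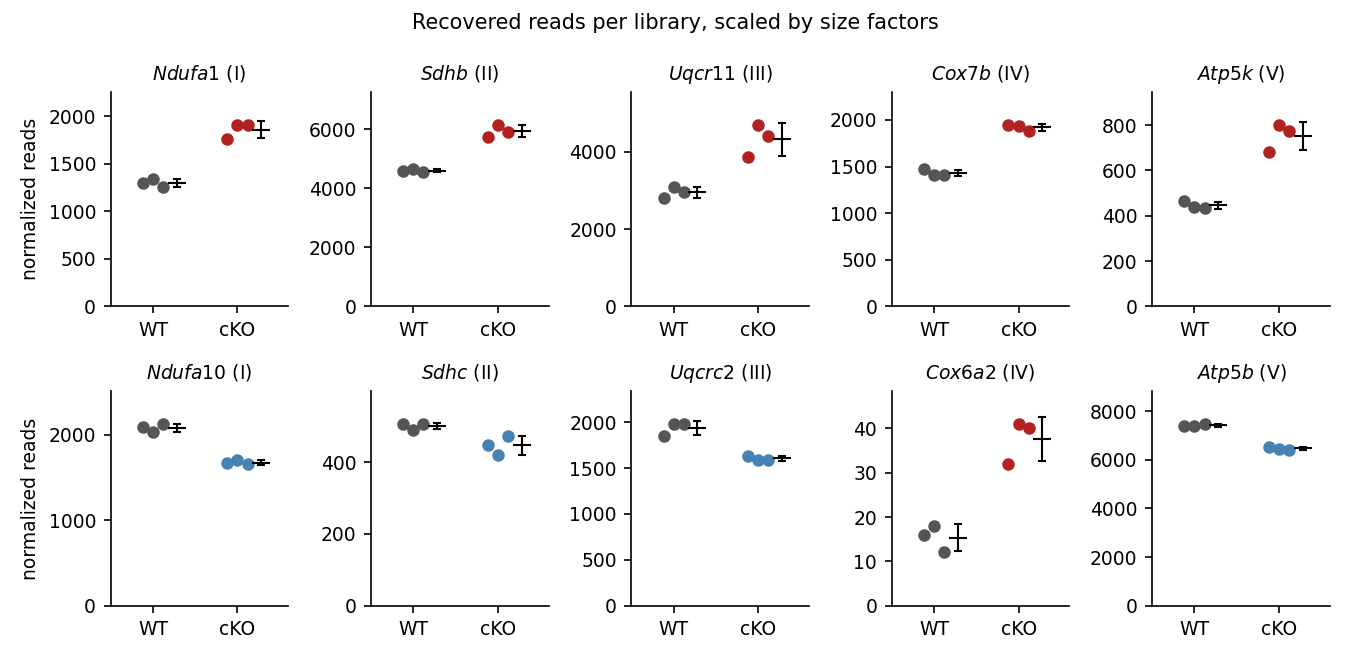
Normalized reads in each WT and *Piezo1 cKO* library for 10 nuclear genes, with group mean and SD.

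Complex V joins the F1 part in the matrix, where ATP is made, to a membrane part with the c ring, and a peripheral stalk holds them together. Of its 19 genes 9 rose and 2 fell, with a median log2FC of 0.0312. That median was 0.00196 without WT replicate 1, 0.00389 without *Piezo1 cKO* replicate 3 and 0.0628 without *Piezo1 cKO* replicate 1. It was 0.0711 at a mean of at least 50 reads and 0.0839 without genes that share sequence or overlap. All 5 nuclear genes of the membrane part other than the c ring rose (median 0.277). In the peripheral stalk *Atp5h*, *Atp5o* and *Atp5j* rose and *Atp5pb* was not called (0.0933). In F1 *Atp5e* rose, *Atp5b* and *Atp5c1* fell, and *Atp5a1* and *Atp5d* were not called. The c-ring genes *Atp5g1*, *Atp5g2* and *Atp5g3* were not called, and *Atp5g2*, with 34.7% of its windows shared, is uncertain.

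*Atp5k* encodes subunit e of the membrane part, which helps complex V to dimerize. It was at 465, 438 and 434 normalized reads in WT and 683, 802 and 774 in *Piezo1 cKO* LSCs. Its log2FC of 0.458 (SE = 0.0395, limma-BH adjusted p = 1.26e-08) was the largest of the 102 genes, with a ratio of 1.69. The lowest *Piezo1 cKO* library, replicate 1, was well above WT. *Atp5j2*, for subunit f, was at 1279, 1496 and 1392 in WT and 1744, 1931 and 1897 in *Piezo1 cKO* LSCs. Its log2FC was 0.289 (SE = 0.0377, limma-BH adjusted p = 2.76e-06). WT replicate 1 was lowest, and the groups were apart.

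*Atp5l*, for subunit g, was at 927, 997 and 1022 normalized reads in WT and 1350, 1315 and 1264 in *Piezo1 cKO* LSCs. Its log2FC was 0.277 (SE = 0.0333, limma-BH adjusted p = 1.01e-06). *Atp5md*, for the dimer-associated subunit k, was at 604, 556 and 582 in WT and 755, 753 and 829 in *Piezo1 cKO* LSCs. Its log2FC was 0.263 (SE = 0.036, limma-BH adjusted p = 4.98e-06). In neither gene did a library of one group reach the other. *Atp5mpl*, for subunit j, rose too (log2FC = 0.232, limma-BH adjusted p = 5.54e-06).

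*Atp5b* encodes the catalytic beta subunit of F1. It was at 7382, 7402 and 7479 normalized reads in WT and 6550, 6461 and 6427 in *Piezo1 cKO* LSCs. log2FC was −0.143 (SE = 0.0205, limma-BH adjusted p = 8.72e-06) and the ratio 0.873. Libraries varied little within groups, and the groups were apart. *Atp5c1*, for the rotating gamma subunit, was at 4439, 4388 and 4309 in WT and 4108, 4065 and 4030 in *Piezo1 cKO* LSCs. It was called lower (log2FC = −0.0767, SE = 0.0233, limma-BH adjusted p = 0.00788), with an adjusted p of 0.0583 when libraries were shifted to the same median. All 3 *Piezo1 cKO* libraries were below WT.

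Among the mtDNA genes *mt-Co1*, for the catalytic subunit of complex IV, was at 12130, 11431 and 10673 normalized reads in WT and 13014, 12577 and 11374 in *Piezo1 cKO* LSCs. It was called higher (log2FC = 0.0813, SE = 0.0326, limma-BH adjusted p = 0.0373). The groups overlapped at *Piezo1 cKO* replicate 3, and the call was lost in 4 of 6 cases when a library was left out, most without WT replicate 3 (log2FC = 0.0466, adjusted p = 0.305). *mt-Cytb*, for cytochrome b of complex III, was at 20551, 18497 and 17828 in WT and 18078, 17537 and 16552 in *Piezo1 cKO* LSCs. It was called lower (log2FC = −0.0911, SE = 0.0297, limma-BH adjusted p = 0.0123). The groups overlapped, and the call was lost without *Piezo1 cKO* replicate 2, without *Piezo1 cKO* replicate 3 or without WT replicate 1, the highest library (log2FC = −0.0469, adjusted p = 0.133).

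No complex I gene of mtDNA was called in the test used here, though some were under other settings. *mt-Nd1* was at 5962, 5314 and 4713 normalized reads in WT and 5584, 5780 and 5267 in *Piezo1 cKO* LSCs (log2FC = 0.0449, limma-BH adjusted p = 0.364). *mt-Nd2* was at 2084, 1921 and 1234 in WT and 1722, 2184 and 1602 in *Piezo1 cKO* LSCs (log2FC = 0.0638, limma-BH adjusted p = 0.562). WT replicate 3 was the lowest library of both genes. *mt-Nd1* was called higher without WT replicate 1 (log2FC = 0.106, adjusted p = 0.0282) and was at −0.0169 without WT replicate 3. For *mt-Nd2* log2FC was 0.164 without WT replicate 1, −0.0951 without WT replicate 3 and −0.0282 without *Piezo1 cKO* replicate 2. *mt-Nd4* was at 2442, 2264 and 1723 in WT and 2000, 2113 and 1902 in *Piezo1 cKO* LSCs (log2FC = −0.0581, limma-BH adjusted p = 0.401). *mt-Nd5* was at 3988, 4177 and 2433 in WT and 2707, 3840 and 2545 in *Piezo1 cKO* LSCs (log2FC = −0.148, limma-BH adjusted p = 0.239). These values hung on single libraries. Without WT replicate 3 log2FC was −0.162 for *mt-Nd4* (adjusted p = 0.00386) and −0.326 for *mt-Nd5* (adjusted p = 0.0101). Without WT replicate 1 it was 0.0135 for *mt-Nd4* (adjusted p = 0.866). With replicate number as a block *mt-Nd5* was called lower (adjusted p = 2.31e-06) and *mt-Nd1* higher (adjusted p = 0.0372), though the numbers are not known to pair. *mt-Nd6*, alone on the light strand among the protein genes, was at 925, 853 and 556 in WT and 704, 877 and 716 in *Piezo1 cKO* LSCs (log2FC = −0.000109, limma-BH adjusted p = 0.999).

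Spread within groups was wider for mtDNA genes. At a deposited level of at least 9 the median within-group SD was 0.136 for 7 mtDNA genes, against 0.035 for 78 nuclear respiratory genes and 0.035 for 5201 genes in all. *mt-Nd5* had the largest of the 7, 0.272, then *mt-Nd2* with 0.228 and *mt-Nd6* with 0.192. In these genes WT replicate 3 was the lowest of all libraries and *Piezo1 cKO* replicate 2 the highest of its group. The SD was wider in WT than in *Piezo1 cKO* LSCs for each: 0.309 against 0.229, 0.278 against 0.163 and 0.247 against 0.112.

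Some mtDNA genes were almost without reads. *mt-Co2* was at 22, 24 and 11 normalized reads in WT and 16, 38 and 21 in *Piezo1 cKO* LSCs. *mt-Co3* was at 21, 29 and 21 in WT and 21, 38 and 24 in *Piezo1 cKO* LSCs. *mt-Atp6* was at 44, 59 and 39 in WT and 42, 53 and 50 in *Piezo1 cKO* LSCs. Groups overlapped in these genes, whose windows of 100 bases occur elsewhere in 99.5%, 99.9% and 99.5% of cases. *mt-Nd3* was at 11, 3 and 0 in WT and 0, 19 and 3 in *Piezo1 cKO* LSCs, with 97.6% of windows shared. *mt-Nd4l* was at 2, 1 and 0 in WT and 1, 10 and 4 in *Piezo1 cKO* LSCs, with 98.5% shared, and no fold is given. *mt-Nd4l* was called higher with libraries shifted to the same median (adjusted p = 0.00109) and without *Piezo1 cKO* replicate 1 (adjusted p = 0.00791). *mt-Atp8* was at 6, 6 and 3 in WT and 5, 5 and 1 in *Piezo1 cKO* LSCs, and *mt-Atp6* overlaps 21.1% of it. In the test used here none of these 6 genes was called.

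The shared windows come from copies of mtDNA in the nuclear genome. Most lie in a long copy on chromosome 1, on the minus strand. *mt-Atp6* and *Gm10925* had 0 differences in 678 bases, *mt-Co2* and *Gm28661* 0 in 681, and *mt-Co3* and *Gm28437* 0 in 783. *mt-Nd4*, with 60.8% of windows shared, had 0 differences from *Gm28439* in 876 bases, and *mt-Nd4l* 0 from *Gm10222* in 294. *mt-Co1*, with 30.8% shared, had 6 differences from *Gm29216* in 492 bases. *mt-Nd2*, with 3.2% shared, had 17 differences in 510 bases from *Gm13339* on chromosome 2, and *mt-Nd1*, *mt-Atp8*, *mt-Nd5*, *mt-Nd6* and *mt-Cytb* shared no window. *mt-Atp8*, of which *mt-Atp6* overlaps 21.1%, also had few reads. A read that fits gene and copy alike may have been set aside, so levels of the shared genes are uncertain, and why these genes were low was not tested.

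*mt-Nd3* and *Gm28438* differed by 1 base in 345. The copy was at 50, 22 and 2 normalized reads in WT and 0, 10 and 4 in *Piezo1 cKO* LSCs. In both it and the gene, counts were near 0 in some libraries of each group. The first 60 coding bases of *mt-Nd3* (GRCm38 chrM:9459-9518, plus strand) and the matching bases of the copy (GRCm38 chr1:24613060-24613119, minus strand) follow, with the differing base in capitals.
mt-Nd3: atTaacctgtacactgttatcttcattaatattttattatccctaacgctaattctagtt
Gm28438: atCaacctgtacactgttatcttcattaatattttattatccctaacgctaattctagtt

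**Figure D3:**
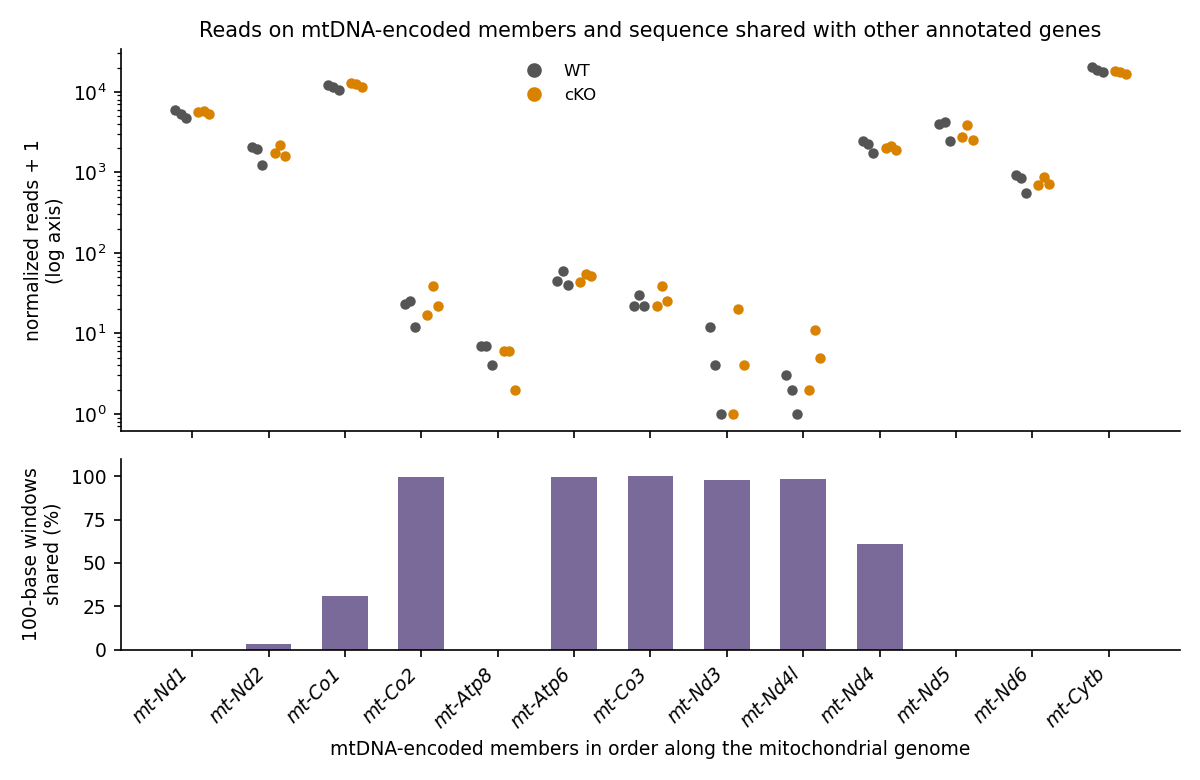
Above, normalized reads + 1 on a log axis for the 13 mtDNA protein genes in each library, in genome order. Below, the percent of 100-base windows of each gene that occur elsewhere in the annotated transcripts.

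Summed, the mtDNA genes held 0.32%, 0.30% and 0.26% of recovered reads in WT and 0.30%, 0.31% and 0.27% in *Piezo1 cKO* LSCs, and these shares overlapped. The nuclear genes held 1.234%, 1.252% and 1.224% in WT and 1.343%, 1.387% and 1.385% in *Piezo1 cKO* LSCs, with every *Piezo1 cKO* library above WT. The ratio of nuclear to mtDNA reads was 3.83, 4.18 and 4.65 in WT and 4.51, 4.53 and 5.09 in *Piezo1 cKO* LSCs, and overlapped.

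Levels between genes were compared as mean normalized reads per kb of the principal transcript, which depends on the isoform chosen. *mt-Cytb* was highest at 15886, followed by *Uqcrc1* at 10242, *Ndufa7* at 8210 and *Uqcr11* at 8163. In complex II *Sdhb* stood at 4607, *Sdha* at 2206 and *Sdhd* at 1870, whereas *Sdhc* stood at 150. Among the genes of restricted tissues *Cox6b2* stood at 169, *Cox7a1* at 56.2, *Cox6a2* at 38.8 and *Cox4i2* at 16.5. *Ndufaf5* was the lowest assembly factor at 74.9. For *mt-Co1* the value was 7681 and for *mt-Nd1* 5681.

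Genes with short coding sequences moved up more. Of 51 nuclear respiratory genes with under 500 coding bases 33 rose, with a median log2FC of 0.117. Of 36 longer ones 16 rose and 7 fell, with a median of 0.0477. Among all genes with at least 50 reads, 47.9% of 866 short ones rose and 21.5% fell (median 0.0697), against 31.7% and 38.2% of 8631 longer ones (−0.0218). Rank correlation of coding length with log2FC across genes was −0.435 for 87 nuclear respiratory genes and −0.116 for 9497 genes in all. *Uqcr11*, with 168 coding bases, *Ndufa1* with 210 and *Atp5k* with 213 were among the shortest, and *Atp5b*, with 1587, and *Ndufv1*, with 1392, among the longer genes that fell. Other short genes moved less: *Atp5e*, with 156, had a log2FC of 0.0967. *Cox8a*, with 207 (log2FC = −0.0388), and *Uqcrq*, with 246 (log2FC = 0.0789), were not called. *Ndufs1*, with 2181 coding bases, rose. The part of transcript length in the result was not tested.

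**Figure D4:**
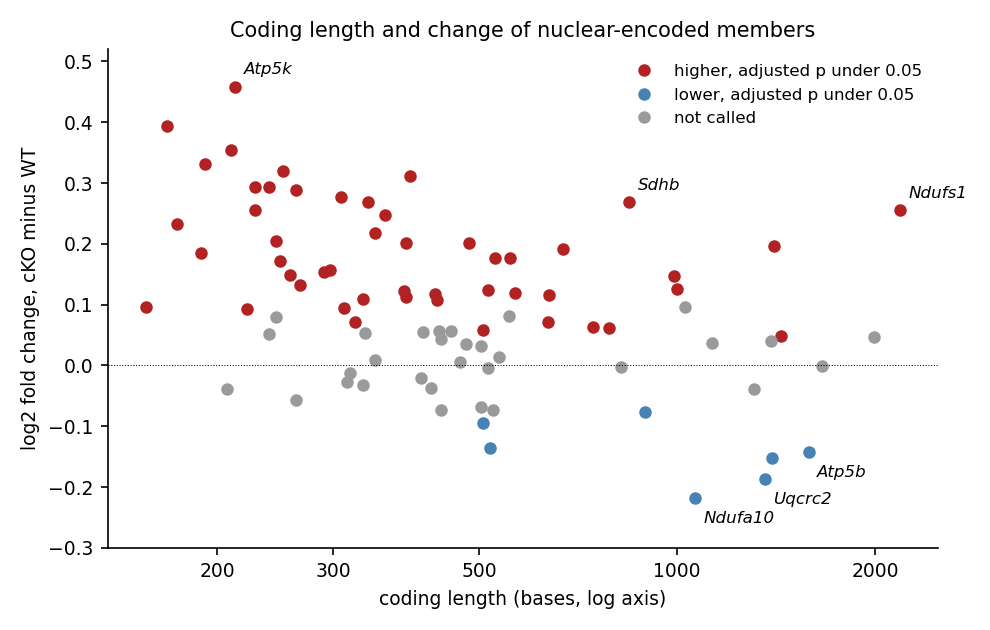
Coding length on a log axis against log2FC for the nuclear respiratory genes, coloured by limma-BH call.

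Promoters from 250 bases before to 50 after the RefSeq transcript start were found for 74 of the genes. The NRF1 motif GCGCATGC occurred on either strand in 12 of 74 (16.2%), against 5.64% of 11029 genes tested. By call it occurred in 8 of 42 genes that rose (19.0%), 1 of 5 that fell (20%) and 3 of 27 not called (11.1%). The YY1 motif AAGATGGCG occurred in 10.8% against 3.35%, the GABP motif CCGGAAGT in 6.76% against 8.81%, and the ERR motif TCAAGGTCA in 2.70% against 0.326%, in genes not called. A match describes sequence and not binding. The 120 bases before the start of 4 genes follow (GRCm38), to place these motifs in genes that rose and in a gene that fell, with motif matches in capitals. The start is the RefSeq or the GENCODE start, whichever comes first. NRF1 is marked in *Ndufa6* (chr15:82354323-82354442, minus strand), *Ndufa11* (chr17:56717642-56717761, plus strand) and *Ndufaf4* (chr4:24897963-24898082, plus strand), and GABP in *Uqcr11* (chr10:80406831-80406950, minus strand). *Ndufaf4* fell and the others rose.
Ndufa6: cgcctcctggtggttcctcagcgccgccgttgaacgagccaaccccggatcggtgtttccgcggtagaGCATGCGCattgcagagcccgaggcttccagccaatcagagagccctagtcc
Ndufa11: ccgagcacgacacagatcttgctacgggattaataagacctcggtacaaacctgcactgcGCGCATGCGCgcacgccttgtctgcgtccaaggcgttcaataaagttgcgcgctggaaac
Ndufaf4: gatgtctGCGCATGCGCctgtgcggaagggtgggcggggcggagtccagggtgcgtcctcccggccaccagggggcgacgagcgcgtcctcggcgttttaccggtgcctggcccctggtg
Uqcr11: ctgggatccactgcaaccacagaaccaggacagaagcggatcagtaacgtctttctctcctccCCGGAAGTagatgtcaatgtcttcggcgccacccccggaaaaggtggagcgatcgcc

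Genes around the complexes were looked at for comparison, and their counts are to be read against the 31.6% of all genes tested that rose and the 31.4% that fell. Of 44 other assembly factors tested 19 rose and 8 fell, with a median log2FC of 0.0605. *Lyrm7*, which keeps the Rieske protein of complex III until it is inserted, was at 82, 86 and 43 normalized reads in WT and 240, 249 and 251 in *Piezo1 cKO* LSCs. Its log2FC was 0.706 (limma-BH adjusted p = 2.19e-09), and all *Piezo1 cKO* libraries were far above WT. *Cmc2* (0.364) and *Uqcc3* (0.325) rose, and *Cox19* fell (−0.32, limma-BH adjusted p = 2.96e-06).

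Of 15 genes for cytochrome c, cytochrome c1 and ubiquinone synthesis 3 rose and 7 fell (median log2FC −0.0784). *Coq2*, which joins the side chain to the ubiquinone ring, was at 1001, 1100 and 1096 normalized reads in WT and 619, 639 and 605 in *Piezo1 cKO* LSCs. Its log2FC was −0.498 (limma-BH adjusted p = 5.81e-10), and the groups were apart. *Coq3* (−0.358) and *Coq10b* (−0.279) fell, and *Coq8a* rose (0.378, limma-BH adjusted p = 2.15e-08). Of 7 genes for other donors of electrons to ubiquinone 1 rose and 2 fell (−0.0271). *Gpd2* (−0.51, limma-BH adjusted p = 8.25e-10) and *Prodh* (−0.401) were lower and *Etfdh* (0.227) higher in *Piezo1 cKO* LSCs.

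Of 17 genes for mtDNA upkeep and transcription 3 rose and 8 fell, or 17.6% and 47.1% (median log2FC −0.074), against 31.6% and 31.4% of all genes. *Tefm*, for the mitochondrial elongation factor, was at 506, 443 and 439 normalized reads in WT and 360, 304 and 286 in *Piezo1 cKO* LSCs. Its log2FC was −0.303 (limma-BH adjusted p = 1.63e-05), with no overlap. *Lrpprc* (−0.275) and *Twnk* (−0.259) fell and *Polg2* rose (0.285, limma-BH adjusted p = 7.3e-07). Of 8 nuclear regulators tested 2 rose and 2 fell, or 25% each way, close to the shares among all genes (median log2FC −0.00473). *Nrf1* was at 1839, 1830 and 1950 in WT and 1404, 1420 and 1407 in *Piezo1 cKO* LSCs. It fell with a log2FC of −0.281 (limma-BH adjusted p = 1.62e-07), as did *Pprc1* (−0.274), while *Esrra* rose (0.184). *Yy1* was called higher (0.112, limma-BH adjusted p = 0.0351) with overlapping groups. It lost the call on recovered reads (adjusted p = 0.0527), with no filter (0.064) and with no variance trend (0.0632). The call was also lost without *Piezo1 cKO* replicate 2 (adjusted p = 0.11), *Piezo1 cKO* replicate 3 (0.188), WT replicate 2 (0.141) or WT replicate 3 (0.114).

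Of 6 carriers of ATP, ADP and phosphate 1 rose and 3 fell (median log2FC −0.0585). *Slc25a5*, for an ADP/ATP carrier, was at 28649, 28751 and 28440 normalized reads in WT and 21893, 21588 and 20687 in *Piezo1 cKO* LSCs. Its log2FC was −0.311 (limma-BH adjusted p = 1.64e-11), with no overlap, whereas *Slc25a4*, for another form, rose (0.28). *Vdac3* (−0.225) and *Vdac1* (−0.112) fell. Of 13 citric acid cycle genes 3 rose and 2 fell (0.0294). *Ogdh* (−0.288, limma-BH adjusted p = 4.43e-09) and *Idh3a* (−0.154) fell, and *Sucla2* (0.175) and *Dlst* (0.144) rose.

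The cells had been sorted as Lin-Sca-1-c-Kit+CD16/32 hiCD34+YFP+, a gate meant to leave out mature blood cells, and leukemic cells may express such markers themselves. Marker genes differed between the groups all the same. Normalized reads of 5 neutrophil markers summed to 2467, 2437 and 2435 in WT and 268, 252 and 274 in *Piezo1 cKO* LSCs, most from *Ngp*. Those of mast cells and basophils summed to 2914, 2958 and 3040 in WT and 9823, 9761 and 9616 in *Piezo1 cKO* LSCs, and those of dendritic cells, mostly *Flt3*, to 641, 675 and 680 and to 1715, 1651 and 1670. Of the sorting markers, *Kit* was at 2489, 2489 and 2590 in WT and 3510, 3337 and 3428 in *Piezo1 cKO* LSCs, and *Cd34* at 3790, 3680 and 3692 and at 5966, 5781 and 5642. For CD16/32, *Fcgr3* was not called (log2FC = −0.0162, limma-BH adjusted p = 0.574) and *Fcgr2b* fell (log2FC = −0.747, limma-BH adjusted p = 1.29e-13). *Ly6a*, for Sca-1, which the gate leaves out, was at 1, 1 and 0 in WT and 10, 17 and 7 in *Piezo1 cKO* LSCs and was called higher (limma-BH adjusted p = 0.000535). *Mpo*, a myeloid progenitor gene that was not used for sorting, was at 278890, 295908 and 295542 in WT and 153882, 161470 and 158600 in *Piezo1 cKO* LSCs. B-cell markers, mostly *Cd79b*, summed to 1581, 1535 and 1597 in WT and 2472, 2627 and 2404 in *Piezo1 cKO* LSCs, and NK-cell markers to 0, 1 and 0 and to 44, 44 and 60. Erythroid markers, mostly *Klf1*, summed to 97, 108 and 100 in WT and 43, 41 and 28 in *Piezo1 cKO* LSCs. Of T-cell markers, which had few reads, *Trac* was higher (limma-BH adjusted p = 0.000351) and *Cd3d* lower (limma-BH adjusted p = 0.00628) in *Piezo1 cKO* LSCs, with sums of 16, 9 and 8 in WT and 18, 18 and 13 in *Piezo1 cKO* LSCs. Macrophage markers, mostly *Csf1r*, summed to 2322, 2429 and 2223 and to 2298, 2303 and 2269, although *C1qb*, with few reads, was called higher (limma-BH adjusted p = 0.000895). For 4 megakaryocyte markers the sums were 267, 318 and 261 in WT and 286, 302 and 267 in *Piezo1 cKO* LSCs. This sum hides opposite changes, with 2 of the 4 higher and 2 lower: *Pf4* fell (log2FC = −0.539, limma-BH adjusted p = 7.09e-10) as did *Ppbp*, and *Itga2b* rose (log2FC = 0.438, limma-BH adjusted p = 2.65e-08). The part of cell composition in the respiratory genes was not tested.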

How the data were processed

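The authors trimmed reads with fastp 0.20.1, aligned them to GRCm38 with HISAT2 2.2.1, counted them with featureCounts 2.0.1 and used DESeq2 1.28.1. The deposited values are log2 values of regularized-log form, and all 6 per-sample columns were used. Genes with a mean deposited value of at least 1 were tested with limma 3.58.1 in R 4.3.3 (linear model, empirical Bayes with a variance trend). Reads were recovered by undoing the regularized log in Python 3.11.15: 93.0% of the values of 18593 genes came within 0.1 of a whole number, and 23.0% with the pull set 10% higher. limma-voom on these reads was an alternative. Other alternatives were another scaling, no filter, no trend, the fold threshold of the study, a replicate block and each library left out. Leaving out genes that share sequence or overlap was chosen after seeing the data. A gene counted as uncertain above 20% shared or overlapped. Named genes were all mtDNA genes, assembly factors, complex II and tissue forms with their partners, and up to 4 called genes per direction and list. Genes and lists were chosen with earlier results of these data known. Annotation was GENCODE M21, and promoters came from RefSeq. Some results for single genes are not reported here.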

Additional observations from a re-analysis of the deposited data

How the results depend on the processing

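Of 82 named genes tested 61 were called. None of the called genes reversed under any alternative, 7 lost the call without 1 library and 7 under another alternative than the fold threshold, and of the genes not called 10 turned sign and 9 gained a call. At an absolute log2FC over 1 with adjusted p under 0.05 (limma-BH) the counts were 0 nuclear genes higher, 0 lower, 0 mtDNA genes higher and 0 lower. Only 137 of all 16746 genes tested passed this threshold on the deposited values, so counts of 0 say little about the respiratory genes. With an unadjusted p the count was also 0. On recovered reads 1 gene passed, *Cox6a2*, which had few reads (log2FC = 1.32, limma-voom adjusted p = 0.000484). *Piezo1* at −0.288 was not past the threshold, while on recovered reads it was (log2FC = −1.13, adjusted p = 4.6e-05). Elsewhere nuclear counts ran from 40 to 57 higher and 5 to 9 lower. Counts over all genes moved with the setting too. At a mean of at least 50 reads 3510 of 10256 genes rose and 3736 fell. With libraries shifted to the same median 6450 of 16746 rose and 4214 fell.

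With libraries shifted to the same median mtDNA higher was 2, and medians were 0.115 (nuclear), 0.0636 (complex II), 0.101 (III), 0.104 (IV), 0.0537 (V) and 0.109 (assembly factors), with *mt-Atp8* at 0.013, *mt-Nd6* at 0.0223 and *Cox4i2* at 0.0175. At a mean of at least 50 reads the mtDNA median was −0.000109, complex IV gave 0.112 and V 0.0711. Without genes that share sequence or overlap, an alternative chosen after seeing the data, mtDNA higher was 0, complex IV 0.13 and V 0.0839. With no filter mtDNA counts were 0 higher and 0 lower, where 5219 of all 26402 genes rose and 5361 fell. With no variance trend they were 0 and 0, where 4696 of all 16746 genes rose and 4754 fell. With *Ndufa4* counted in complex I, I gave 0.068 and IV 0.0699.

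On recovered reads medians were 0.147 (nuclear), 0.147 (I), 0.0571 (II), 0.11 (III), 0.195 (IV), 0.0486 (V) and 0.133 (assembly factors), and *mt-Nd6* was 0.00975. On library totals they were 0.165, 0.165, 0.0754, 0.128, 0.214, 0.067 and 0.152, and *mt-Nd6* 0.0278. On totals without mtDNA genes they were 0.165, 0.165, 0.0755, 0.128, 0.214, 0.0672 and 0.152, and *mt-Nd6* 0.028. With replicate number as a block mtDNA counts were 3 higher and 2 lower, though the numbers are not known to pair. Among all 16746 genes 5542 rose and 5513 fell with this block. There *mt-Nd1* (adjusted p = 0.0372), *mt-Nd4l* (0.0241) and *mt-Nd5* (2.31e-06) gained the call. *Sdha* (0.0125), *Ndufaf3* (0.0194) and *Ndufaf5* (0.0378) were also called higher with this block.

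Leaving out each library in turn, mtDNA higher ran from 0 to 2 and lower from 0 to 3. Over all genes tested, 16735 to 16754 in these fits, 4751 to 5047 rose and 4850 to 5070 fell. Medians ran from 0.0716 to 0.0995 (nuclear), −0.0169 to 0.0408 (mtDNA), 0.0572 to 0.102 (I), 0.0329 to 0.0513 (II), 0.0466 to 0.0995 (III), 0.0594 to 0.114 (IV), 0.00196 to 0.0628 (V) and 0.0617 to 0.091 (assembly factors). log2FC ran from −0.0169 to 0.106 for *mt-Nd1*, −0.0951 to 0.164 for *mt-Nd2*, −0.00261 to 0.0719 for *mt-Co2*, −0.0173 to 0.00105 for *mt-Atp8*, −0.0167 to 0.0391 for *mt-Atp6*, −0.00822 to 0.0477 for *mt-Co3*, −0.0236 to 0.0468 for *mt-Nd3*, −0.162 to 0.0135 for *mt-Nd4*, −0.141 to 0.0893 for *mt-Nd6* and −0.0393 to 0.0188 for *Cox4i2*. The cause was not tested.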

Other observations

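Seen after the values were known, *Ndufa12-ps*, left out by its symbol, stood at 17, 9 and 12 normalized reads in WT and 492, 486 and 457 in *Piezo1 cKO* LSCs (log2FC = 1.88, limma-BH adjusted p = 1.16e-17). *Ndufb1-ps* stood at 8.782, 8.794 and 8.791 in WT and 8.769, 8.829 and 8.745 in *Piezo1 cKO* LSCs on the deposited scale. With 3 libraries a group and no protein measured here, RNA says nothing of the amount of each complex.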
